A study of Homo sapiens with 6 samples.

Results

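Cyclic nucleotide phosphodiesterases are the enzymes that hydrolyse cAMP and cGMP, the second messengers made by adenylyl and guanylyl cyclases. Cyclases set how fast these messengers appear, phosphodiesterases set how fast and where in the cell they disappear, and protein kinase A, protein kinase G and the exchange factors of the EPAC group read the level that results. The families differ in substrate: PDE4, PDE7 and PDE8 act on cAMP, PDE5, PDE6 and PDE9 on cGMP, and PDE1, PDE2, PDE3, PDE10 and PDE11 on both. PDE4 enzymes are a major route of cAMP breakdown in many cell types.

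The genes described are 10 of these enzymes, taken by name: PDE1C, PDE3A, PDE3B, PDE4A, PDE4B, PDE4D, PDE5A, PDE7B, PDE8A and PDE10A, out of 25330 gene symbols counted. They were chosen by their counts in the knockout against the control libraries of these same data. Their fold changes are therefore given as a description and carry no test. Of the 10 genes, 9 passed the filter on low counts and PDE3A did not. The remaining 11 catalytic genes of the family serve as the comparison, and 10 of them are among the counted symbols.

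All libraries are of MDA-MB-231 cells, a long-established line of triple-negative breast cancer with mesenchymal features, grown untreated in medium with 10% serum. One group carries the genotype label RNASEH2A KO (3 libraries, column name RN1), a knockout of the catalytic subunit of RNase H2, which removes ribonucleotides from DNA. The other is the control with the genotype label CTRV2 (3 libraries). RNA was taken at different passages of each, and all 6 libraries share the same batch label. The sources used here do not say if the knockout is 1 clone or a pool, nor what CTRV2 carries, and the spread between libraries is a spread between passages and may be technical.

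Library totals ran from 27928670 to 31596286 counts in the knockout and from 25419877 to 29635083 in the control. RNASEH2A itself had 7, 8 and 16 counts in knockout libraries and 10, 6 and 15 in control libraries. The groups overlap near 0, so its count does not check the labels. Of its exon bases 30.8% are shared with THSD8 on the same strand. The cause of the low count in both groups was not tested. Every direction below rests on the labels. The 6 marker genes of this line summed to between 6011 and 6245 CPM (counts scaled to library size, here with TMM factors) in knockout and between 6125 and 6514 in control libraries. The 6 genes known to be low in this line summed to 30.6 to 36.7 CPM in knockout and 24.9 to 31.1 in control, mostly EPCAM (19.3 ± 3.64 and 15.1 ± 1.81 CPM) and CLDN7 (10.8 ± 0.464 and 8.51 ± 1.84 CPM), and ESR1 was at 0 in every library. Leukocyte markers, 4 of 6 counted, summed to 2.48 to 4.24 CPM in knockout and 4.12 to 4.98 in control, endothelial markers to 0.311 to 0.713 and 0.635 to 0.701. Fibroblast markers summed to 46.1 to 93.2 CPM in knockout and 49.3 to 54.4 in control. Their part in the results was not tested. In bulk RNA, fewer cells that express a gene and less RNA per cell cannot be told apart.

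The summed level of the 10 transcripts was lower in the knockout. It was 276, 235 and 236 CPM in knockout libraries and 331, 319 and 326 CPM in control libraries. Every knockout library lay below every control library. The means were 249 ± 23.4 and 325 ± 5.80 CPM (SD, n = 3 each), so the knockout sum was 76.6% of the control sum, a log2 ratio of -0.39. PDE7B gave 32.0% of the net difference of -76.2 CPM, PDE10A 19.3%, PDE4A 18.4%, PDE8A 13.0%, PDE4D 8.44% and PDE4B 7.83%, while PDE3B ran the other way by 3.18 CPM. With any 1 of the 10 genes left out the log2 ratio ran from -0.44 without PDE4D to -0.30 without PDE7B.

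By gene, 8 of the 9 tested were lower in the knockout and PDE3B was higher, with no overlap between the 3 and 3 libraries for any of the 9. Over all tested genes 33.5% had groups that did not overlap, 17.4% with the knockout lower and 16.1% with it higher. By edgeR's quasi-likelihood test 6 of the 9 had an adjusted p under 0.05, 5 lower and 1 higher, but not PDE4D, PDE5A or PDE10A. Of the 14199 tested genes 12.1% passed, 6.22% lower and 5.88% higher. These are counts over genes chosen for this contrast, and nothing is read from them. Among the 9, PDE1C passed the filter on low counts through the control libraries alone. The count also hung on single libraries: it was 8 without knockout replicate 1, 3 without knockout replicate 2, 1 without knockout replicate 3, and 3, 2 and 1 without control replicates 1, 2 and 3. The median log2 fold change of the 9 was -0.36, against 0.0035 over all tested genes.

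**Figure D1:**
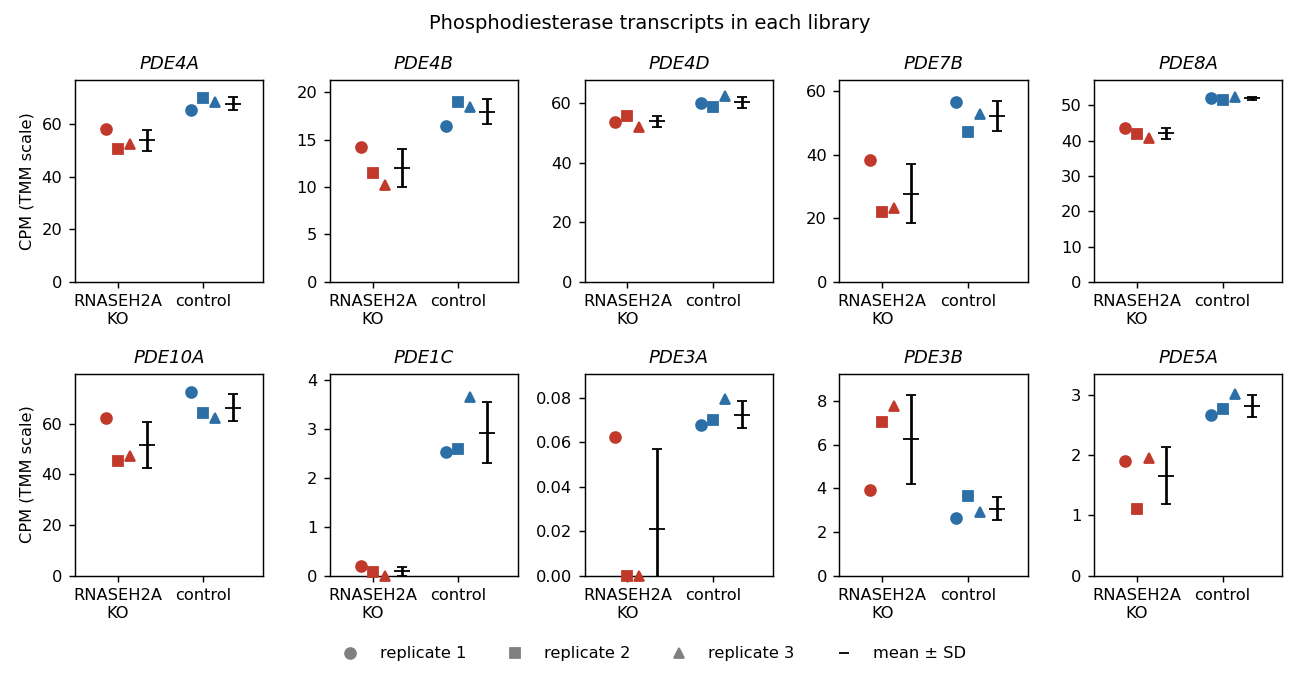
Level of each of the 10 phosphodiesterase transcripts in every library, in CPM on the TMM scale on linear axes that start at 0 and differ between panels, with RNASEH2A KO left of control, 1 symbol per replicate, and the mean ± SD (n = 3) beside the points. PDE3B is the 1 panel in which knockout libraries lie higher, and in PDE7B, PDE10A and PDE3B knockout replicate 1 stands apart from knockout replicates 2 and 3.

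The cAMP-specific enzymes made up most of the sum. PDE4A (chr19:10416773-10469631, plus strand, GENCODE 29 on GRCh38), a member of the rolipram-sensitive PDE4 family, had 58.3, 50.7 and 52.6 CPM in knockout libraries and 65.3, 69.9 and 68.4 CPM in control libraries. The groups did not overlap, and the log2 fold change was -0.33 ± 0.08 (SE). PDE4D (chr5:58969038-60522120, minus strand), which yields many isoforms with different anchors in the cell, had 53.6, 55.9 and 52.2 CPM in knockout and 59.9, 58.7 and 62.4 CPM in control libraries. Its difference was the smallest of the 9, at -0.16 ± 0.07 on the log2 scale. PDE4B (chr1:65792514-66374579, plus strand), the PDE4 enzyme best known from inflammatory cells, was the least abundant of the 3. It had 14.2, 11.5 and 10.3 CPM in knockout and 16.4, 18.9 and 18.5 CPM in control libraries, a log2 fold change of -0.58 ± 0.13. Together the 3 PDE4 genes stood at 119.7 ± 5.77 CPM in knockout and 146 ± 3.99 CPM in control, or 81.9% of control.

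PDE7B (chr6:135851696-136195574, plus strand), a cAMP-specific enzyme insensitive to rolipram, showed the largest difference in CPM. It had 38.2, 21.8 and 23.2 CPM in knockout libraries and 56.6, 47.1 and 52.7 CPM in control libraries. Knockout replicate 1 lay between knockout replicates 2 and 3 and the controls. The log2 fold change was -0.91 ± 0.19, and -1.21 without knockout replicate 1. PDE8A (chr15:84980440-85139145, plus strand), a cAMP-specific enzyme of high affinity, had 43.6, 42.0 and 40.6 CPM in knockout and 52.2, 51.4 and 52.3 CPM in control libraries. Replicates of PDE8A were close in both groups, and the log2 fold change was -0.30 ± 0.07.

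Of the promoters of these genes, those of PDE4A and PDE7B are shown because they are the only members whose windows hold the full cAMP response element, TGACGTCA, the sequence that CREB binds. The windows are from RefSeq on GRCh38.p14, 250 bases before to 50 after an annotated start, printed 5′ to 3′ on the plus strand. Capitals mark each match to the short form of the element, TGACG, or to CGTCA, the same letters on the other strand, and the full element is the place where both overlap. The PDE4A window is chr19:10416523-10416822 and the PDE7B window chr6:135851451-135851750.
PDE4A: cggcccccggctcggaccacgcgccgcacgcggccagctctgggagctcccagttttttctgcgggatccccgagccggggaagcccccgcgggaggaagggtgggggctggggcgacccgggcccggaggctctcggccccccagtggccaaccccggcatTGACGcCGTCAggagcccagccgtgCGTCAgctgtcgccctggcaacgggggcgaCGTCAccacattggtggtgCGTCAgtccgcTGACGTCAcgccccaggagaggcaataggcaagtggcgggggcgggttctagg
PDE7B: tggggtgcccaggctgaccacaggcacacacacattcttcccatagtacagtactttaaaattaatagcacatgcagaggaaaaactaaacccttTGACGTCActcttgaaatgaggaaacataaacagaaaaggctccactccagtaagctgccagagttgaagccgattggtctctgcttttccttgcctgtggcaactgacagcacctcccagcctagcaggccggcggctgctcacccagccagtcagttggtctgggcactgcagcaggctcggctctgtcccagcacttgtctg
RefSeq windows were found for 9 of the 10 genes, 35 in all, with PDE3B unmatched. The full element, which reads the same on both strands, was in 2 of the 35, against 1.85% of all 35116 windows. In PDE4A it begins at position -3 from the start and in PDE7B at position -155. The short form on either strand, which counts the full element too, was in 4 of the 35 windows, against 24.6% of all windows. The PDE4A window shown holds 7 such matches. The other 2 are a window of PDE4D and a window of PDE5A. PDE1C, PDE3A, PDE4B, PDE8A and PDE10A had no match in their windows.

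Of the enzymes that act on both nucleotides, PDE10A was abundant and the others were scarce. PDE10A (chr6:165327287-165988078, minus strand), best known from striatal neurons, had 62.1, 45.4 and 47.2 CPM in knockout libraries and 72.4, 64.1 and 62.3 CPM in control libraries. The groups came close to touching, since knockout replicate 1 lay just under control replicate 3. The log2 fold change was -0.36 ± 0.12, and -0.52 without knockout replicate 1.

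PDE1C (chr7:31751179-32299329, minus strand), which calcium and calmodulin activate, had the largest fold of the 9 tested. It passed the filter on low counts through the control libraries alone. Its place among the 9 is therefore partly set by the direction of its difference. It had 6, 2 and 0 counts in knockout libraries and 75, 74 and 92 counts in control libraries, or 0.187, 0.0719 and 0 CPM and 2.53, 2.60 and 3.65 CPM. The fitted log2 fold change was -4.95 ± 0.53 and depends on a prior count at this depth. It was -6.18 without knockout replicate 1, which holds 6 of the 8 knockout counts. Pooled over libraries, 8 knockout and 241 control counts gave a level 31.5-fold lower in the knockout. The exact Clopper-Pearson 95% interval, 15.7 to 73.8, covers counting error only. It leaves out the spread between libraries and the choice of PDE1C on this contrast, so it is a description. Of the counts from 1 to 20, 69.7% to 72.9% were even in each library, so reads may have been counted in pairs and the interval would then be too narrow.

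PDE3B (chr11:14643723-14872044, plus strand), a cAMP-hydrolysing enzyme that cGMP inhibits and insulin activates in fat cells, was the 1 gene of the 9 that was higher. It had 3.92, 7.04 and 7.77 CPM in knockout libraries and 2.63, 3.65 and 2.94 CPM in control libraries. Knockout replicate 1 was near the highest control, and the log2 fold change of 1.02 ± 0.26 was 1.27 without it. PDE3A (chr12:20369245-20684381, plus strand), the cardiac and platelet relative of PDE3B, had 2, 0 and 0 counts in knockout and 2, 2 and 2 counts in control libraries. Both groups were under the 3 counts that a count of 0 allows, or 0.0949 to 0.118 CPM, so no fold is given and PDE3A was not detectable at this depth.

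PDE5A (chr4:119494395-119628991, minus strand), the cGMP-specific enzyme that sildenafil inhibits, is the only cGMP-specific gene of the 10. It had 1.90, 1.11 and 1.96 CPM in knockout libraries and 2.67, 2.77 and 3.02 CPM in control libraries. The groups did not overlap, and the log2 fold change was -0.76 ± 0.25.

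No single isoform held a majority of the transcripts. By CPM, PDE4A was 21.6% ± 0.596 of the sum of the 10 in knockout and 20.9% ± 1.085 in control (SD, n = 3 each), PDE10A 20.6% ± 1.68 and 20.3% ± 1.42, and PDE4D 21.8% ± 2.18 and 18.5% ± 0.518. PDE4A was the highest in 3 of the 6 libraries, PDE10A in 2 and PDE4D in 1, and in the knockout the mean levels of PDE4A and PDE4D were both 53.9 CPM. In the control PDE4A was above PDE4D in 3 of 3 libraries with no overlap, while PDE10A overlapped with both, and in the knockout the 3 overlapped. PDE7B, by contrast, was 10.98% ± 2.50 of the sum in knockout and 16.0% ± 1.19 in control.

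CPM grows with transcript length, so levels between genes were also set per kb of exon. On that scale PDE4A was the highest in 6 of 6 libraries, at 8.10 ± 0.601 CPM per kb in knockout and 10.2 ± 0.356 in control (SD, n = 3 each), or 31.4% ± 1.13 and 29.1% ± 1.44 of the sum of the 10. PDE7B stood at 4.67 ± 1.53 and 8.76 ± 0.803 CPM per kb and PDE8A at 5.33 ± 0.188 and 6.59 ± 0.0597. PDE7B was above PDE8A in all 3 control libraries and in 1 of the 3 knockout libraries, so the second place changed between the groups on this scale. PDE4D at 3.30 ± 0.115 and 3.70 ± 0.115, PDE10A at 2.34 ± 0.416 and 3.01 ± 0.244 and PDE4B at 1.39 ± 0.233 and 2.08 ± 0.154 CPM per kb followed in that order in every library. PDE3B, PDE5A, PDE1C and PDE3A were under 1 CPM per kb throughout, at 0.664 or less. The exon lengths matter here, since annotated exons span 22022 bases in PDE10A and 16308 in PDE4D but 6646 in PDE4A. Per kb of the longest transcript (8652, 8232 and 4781 bases), PDE4A was again first in 6 of 6 libraries, PDE8A was second in both groups, and the order of PDE7B, PDE4D and PDE10A varied between libraries.

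**Figure D2:**
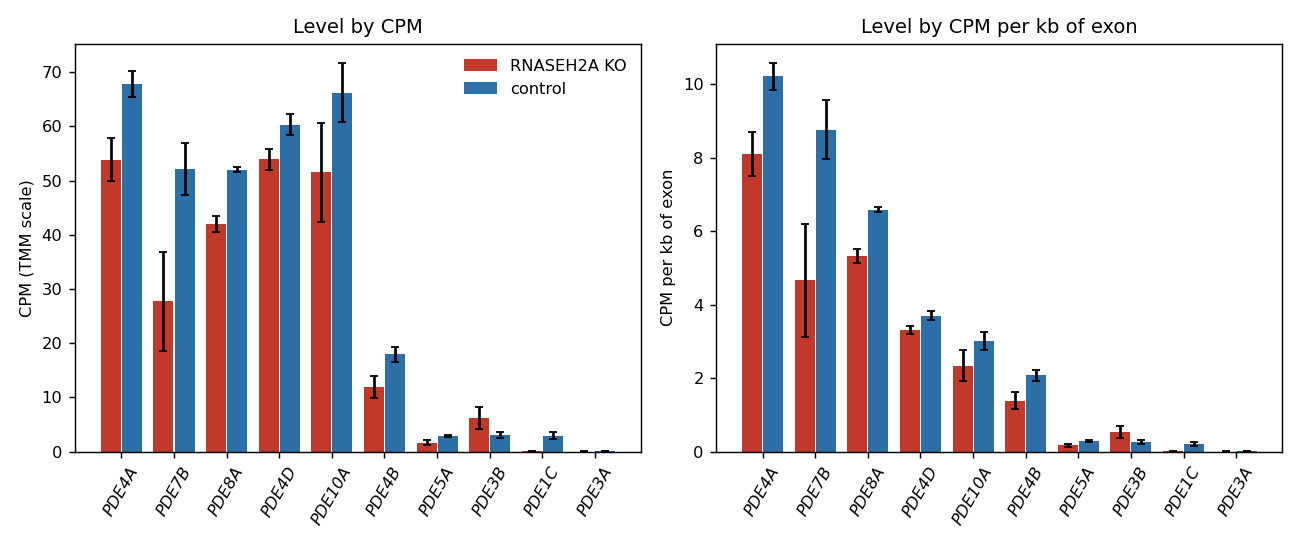
Mean level of the 10 transcripts in RNASEH2A KO (left bars) and control (right bars), as CPM and as CPM per kb of annotated exon, with the SD of 3 libraries as error bars and genes in the order of the control level per kb. By CPM, PDE4A, PDE4D and PDE10A stand close together, and per kb of exon PDE4A leads both groups, at 8.10 and 10.2.

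By the rule for likeness, the genes whose log2 CPM over the 6 libraries followed PDE4A most closely, among 10495 genes of at least 5 CPM, were CEMIP, a hyaluronan-binding protein (Pearson r = 0.999), SLC41A1, a magnesium transporter (r = 0.998), and COG2, a subunit of a Golgi complex (r = 0.996). The 6 points fall into 2 groups of 3 that do not overlap in any of these genes. CEMIP was at 254 ± 59.3 CPM in knockout and 563 ± 67.6 CPM in control (SD, n = 3 each), a wider gap than that of PDE4A.

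The position of the knockout libraries was alike across the genes. Knockout replicate 1 was the knockout library nearest to the control mean for 7 of the 9 tested genes, all but PDE4D and PDE5A, against 36.5% of all tested genes and 49.8% of those called. It also differed most from its own group, with a chi-square per degree of freedom over all genes of 34.2 and 22.2 against knockout replicates 2 and 3, which differed from each other by 6.61. Control replicate 1 also stood apart, at 11.4 and 10.2 against control replicates 2 and 3, which differed from each other by 2.45. Deviations from the group mean correlated at 0.316 between knockout replicate 1 and control replicate 1. Those of knockout replicate 1 correlated at -0.183 and -0.180 with those of control replicates 2 and 3. Deviations within a group cancel out for each gene, so these negative values follow in part from the positive value with control replicate 1. What sets replicate 1 apart in both groups was not tested. The summed level without knockout replicate 1 had a log2 ratio of -0.47.

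Genes around 3 of the members were shifted in the same direction. The median log2 fold change of the 50 nearest tested genes (25 on each side) was -0.20 around PDE4A, -0.18 around PDE10A and -0.15 around PDE7B, and between -0.08 and 0.03 around the other 6. With this median subtracted, PDE4A was at -0.13, PDE10A at -0.18, PDE4D at -0.09 and PDE7B at -0.76, while PDE1C, PDE3B, PDE4B, PDE5A and PDE8A moved by less than 0.1. Of the genes most like PDE4A, SLC41A1 and COG2 had neighbour medians of -0.18 and -0.21, and CEMIP one of -0.08. With these subtracted, SLC41A1 went from -0.27 to -0.09, COG2 from -0.38 to -0.17 and CEMIP from -1.15 to -1.06. The part of such stretches in the results was not tested further.

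**Figure D3:**
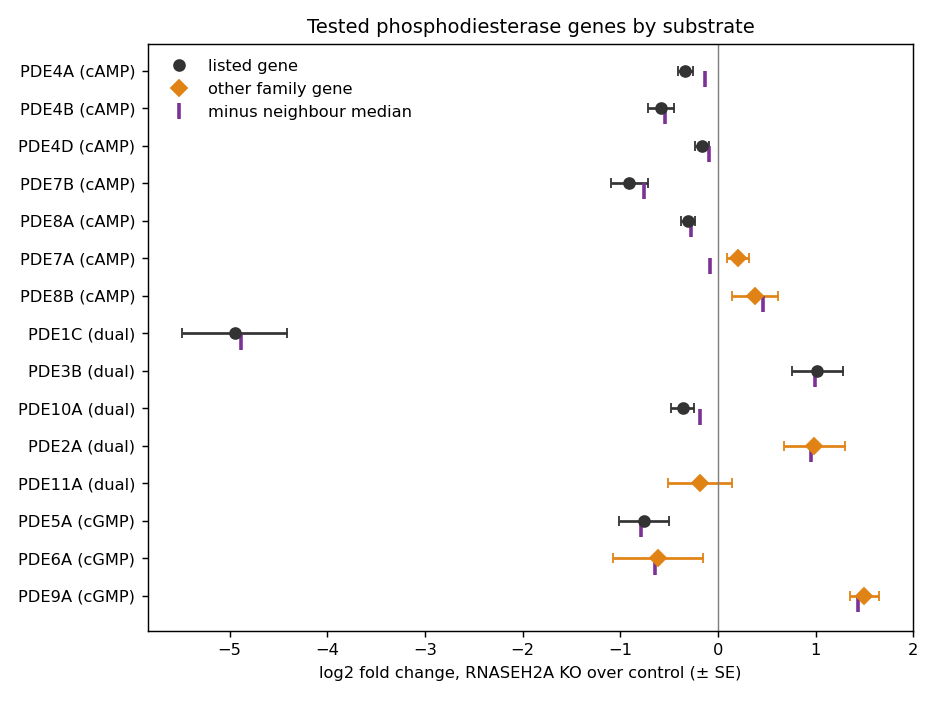
Fold change of the 15 tested family genes on the log2 scale, RNASEH2A KO over control, ± SE, ordered by substrate. Round points are the listed genes and diamonds the other family genes, and the upright bars give the value with the median of 50 neighbouring genes subtracted. PDE4A, PDE10A and PDE7B move most toward 0 with that subtraction, and PDE7A moves across 0. Before it, PDE9A, PDE3B, PDE2A, PDE8B and PDE7A lie to the right of 0.

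Of the family genes outside the list, 10 were counted and 6 tested, and 1 rose while 5 did not pass, a share of 16.7% called against 12.1% of all tested genes. Since the list was chosen on this contrast, a difference between it and the remaining genes is partly set by that choice. The 6 had a median log2 fold change of 0.29 against 0.0035 over all tested genes. The riser was PDE9A, a cGMP-specific enzyme of very high affinity (chr21:42653636-42775509). It had 10.3, 14.1 and 13.2 CPM in knockout libraries and 4.52, 4.56 and 4.21 CPM in control libraries. The knockout libraries all stood at more than any control, and the log2 fold change was 1.497 ± 0.149 SE (edgeR adjusted p = 0.000561). PDE2A, a dual-substrate enzyme that cGMP stimulates, had 4.205, 7.30 and 8.45 CPM in knockout and 2.09, 4.42 and 3.53 CPM in control libraries. Its groups overlapped and it did not pass (log2 fold change 0.99 ± 0.31 SE, edgeR adjusted p = 0.0685). PDE2A passed in 4 of 15 alternatives, among them DESeq2 (adjusted p = 0.0145) and edgeR without knockout replicate 1 (adjusted p = 0.00376).

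PDE7A, the cAMP-specific relative of PDE7B, was at 14.3 ± 0.602 CPM in knockout and 12.4 ± 1.37 CPM in control (SD, n = 3 each; log2 fold change 0.21 ± 0.11 SE, edgeR adjusted p = 0.276), and its value was -0.09 with the median of its neighbours subtracted. PDE8B was at 2.48 ± 0.321 and 1.90 ± 0.389 CPM and PDE11A at 1.94 ± 0.972 and 2.20 ± 0.181 CPM, and neither passed. PDE6A did not pass either, at 0.381 ± 0.196 and 0.585 ± 0.190 CPM. PDE1A, PDE6B and PDE6C were under 1 CPM in every library and fell below the filter, and PDE4C is listed at 0 in every library. Overlapping genes on the same strand cover 70.7% of the exon bases of PDE4C and 41.6% of those of PDE8B, so both counts are uncertain.

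Summed by substrate over the 20 counted family genes, cAMP-specific transcripts were lower, at 206 ± 15.5 CPM in knockout and 264 ± 5.12 CPM in control (SD, n = 3 each), and cGMP-specific transcripts were higher, at 14.8 ± 1.88 and 8.13 ± 0.222 CPM. Neither pair of groups overlapped. Dual-substrate transcripts stood at 66.8 ± 5.55 CPM in knockout and 78.2 ± 3.82 CPM in control. That class followed PDE10A: with PDE10A left out it was at 15.3 ± 4.65 and 11.9 ± 1.76 CPM and the groups overlapped, and per kb of exon the class was at 3.86 ± 0.161 and 4.01 ± 0.0988 with overlap, leaving out PDE11A, which had no exon length. The higher cGMP-specific sum was PDE9A, which outweighed the lower PDE5A. The whole family stood at 288 ± 18.5 CPM in knockout and 351 ± 5.35 CPM in control, or 82.1% of control, against 76.6% for the 10 listed genes.

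**Figure D4:**
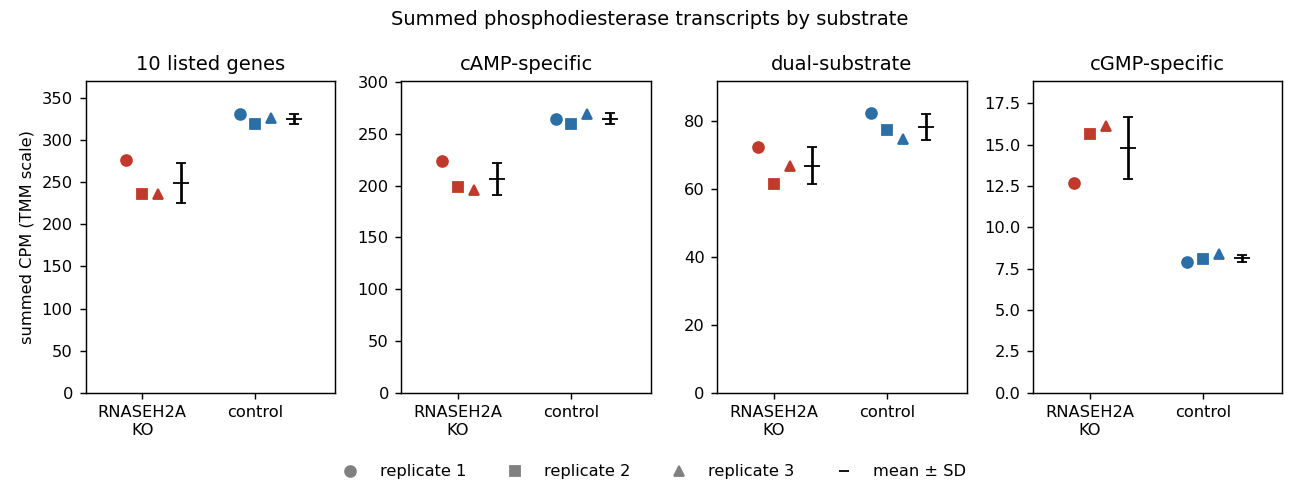
Summed CPM in each library of the 10 listed genes and of all counted family genes by substrate, with RNASEH2A KO left of control, linear axes from 0 and the mean ± SD (n = 3) beside the points. Knockout libraries lie below control for the listed genes (249 against 325), the cAMP-specific class (206 against 264) and the dual class (66.8 against 78.2), and above it for the cGMP-specific class (14.8 against 8.13).

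Of 18 genes counted for cyclases, the enzymes that make the messengers, 7 were tested, and 0 were called by edgeR, DESeq2 or limma-voom, with 1 at an unadjusted edgeR p under 0.05. With 12.1% of all tested genes called, 0 of 7 says little about the cyclases. ADCY9 had the highest CPM of the adenylyl cyclase transcripts, with no account of length, at 110 ± 5.71 in knockout and 125 ± 6.02 in control. Its log2 fold change was -0.18 ± 0.07 SE (edgeR adjusted p = 0.118, and 0.0272 without knockout replicate 1). ADCY6 was at 43.1 ± 2.39 and 38.8 ± 3.14 CPM (log2 fold change 0.15 ± 0.09 SE, edgeR adjusted p = 0.288). Of 5 tested G protein genes of the cyclase, 2 fell and 3 did not pass, where 12.1% of all tested genes were called. The 2 encode inhibitory alpha subunits. GNAI3 was at 180 ± 7.52 CPM in knockout and 233 ± 4.28 CPM in control (-0.37 ± 0.06 SE, edgeR adjusted p = 0.00513), and GNAI1 at 23.7 ± 0.814 and 31.5 ± 0.292 CPM (-0.41 ± 0.08 SE, adjusted p = 0.0104). With neighbours subtracted GNAI3 did not pass (adjusted p = 0.1403), and GNAI1 did not pass without control replicate 2 or control replicate 3, where its adjusted p reached 0.0650. The third and most abundant inhibitory subunit gene, GNAI2, was at 611 ± 9.41 CPM in knockout and 568 ± 16.4 CPM in control (log2 fold change 0.10 ± 0.05 SE, edgeR adjusted p = 0.237), with every knockout library above every control.

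Of 14 tested receptors that couple to the stimulatory G protein, 3 rose and 1 fell, a share of 28.6% called against 12.1% of all tested genes. GPR65, a proton-sensing receptor, had 6.42, 16.2 and 13.5 CPM in knockout libraries and 0.270, 0.210 and 0.794 CPM in control libraries, where its counts were 8, 6 and 20. Its knockout libraries carried it past the filter on low counts. It rose by 4.85 ± 0.48 on the log2 scale (edgeR adjusted p = 0.000551), and by 5.62 without control replicate 3. PTGER4, a prostaglandin E2 receptor, was at 21.8 ± 2.79 CPM in knockout and 14.3 ± 0.377 CPM in control (0.61 ± 0.11 SE, edgeR adjusted p = 0.00833, and 0.0517 without control replicate 3). VIPR1, a receptor for vasoactive intestinal peptide, fell to 26.4 ± 7.97 CPM in knockout, against 60.4 ± 14.7 CPM in control (-1.20 ± 0.23 SE, edgeR adjusted p = 0.0111, and up to 0.0613 without knockout replicate 3, control replicate 2 or control replicate 3).

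Of 12 tested effector genes, 4 fell and 8 did not pass, a share of 33.3% called against 12.1% of all tested genes. The catalytic subunit genes of protein kinase A on this list, PRKACA and PRKACB, were among them. PRKACA was at 111 ± 7.99 CPM in knockout and 147 ± 3.85 CPM in control (-0.41 ± 0.07 SE, edgeR adjusted p = 0.00659), and PRKACB at 43.8 ± 4.13 and 61.1 ± 6.07 CPM (-0.48 ± 0.10 SE, adjusted p = 0.0144). The neighbours of PRKACA had a median of -0.26 and those of PRKACB of -0.19, and with these subtracted neither passed (edgeR adjusted p = 0.241 and 0.117). PRKG1, or protein kinase G, was at 0.481 ± 0.0864 CPM in knockout and 1.25 ± 0.222 CPM in control, and PKIA, an inhibitor of protein kinase A, at 1.41 ± 0.0360 and 2.61 ± 0.107 CPM. PRKACB, PRKG1 and PKIA each lost the call without knockout replicate 3, control replicate 2 or control replicate 3, PRKG1 and PKIA also without control replicate 1, and PKIA without knockout replicate 2, with an adjusted p of up to 0.107.

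Of 15 tested anchoring and partner genes 1 fell, a share of 6.67% against 12.1% of all tested genes. This was AKAP8 (-0.37 ± 0.09 SE, edgeR adjusted p = 0.0270, and 0.452 with neighbours subtracted), and its call ended without any 1 library other than knockout replicate 1. The cAMP exporter ABCC4 was at 46.4 ± 1.54 CPM in knockout and 64.2 ± 2.39 CPM in control (-0.47 ± 0.07 SE, edgeR adjusted p = 0.00356) and kept its call in 15 of 15 alternatives. Of 8 CREB factor genes 0 were called by edgeR, DESeq2 or limma-voom, with 3 at an unadjusted edgeR p under 0.05, beside the 12.1% of all tested genes. CREB1 was at 53.9 ± 3.61 CPM in knockout and 63.3 ± 1.74 CPM in control (-0.23 ± 0.07 SE, adjusted p = 0.0750) and ATF1 at 30.8 ± 1.45 and 35.8 ± 0.197 CPM (-0.22 ± 0.08 SE, adjusted p = 0.1003). Without knockout replicate 1 both passed, at an edgeR adjusted p of 0.00945 for CREB1 and 0.0480 for ATF1. Of 17 tested CREB target genes 1 rose and 1 fell, a share of 11.8% against 12.1% of all tested genes. DESeq2 called 3, and 6 were at an unadjusted edgeR p under 0.05, against 2194 and 3939 of all 14199 tested genes. The log2 fold change was below 0 for 12 of the 17, against 49.4% of all tested genes. Its median was -0.20, against 0.0035 over all tested genes. AREG, the growth factor amphiregulin, fell to 43.5 ± 2.56 CPM in knockout, against 69.0 ± 3.02 CPM in control (-0.67 ± 0.08 SE, edgeR adjusted p = 0.00104), and ID1 was at 119 ± 10.7 and 97.5 ± 0.468 CPM (0.29 ± 0.08 SE, adjusted p = 0.0376). ID1 lost its call without knockout replicate 3 or without any 1 of the control replicates, with an adjusted p of up to 0.1402.

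**Figure D5:**
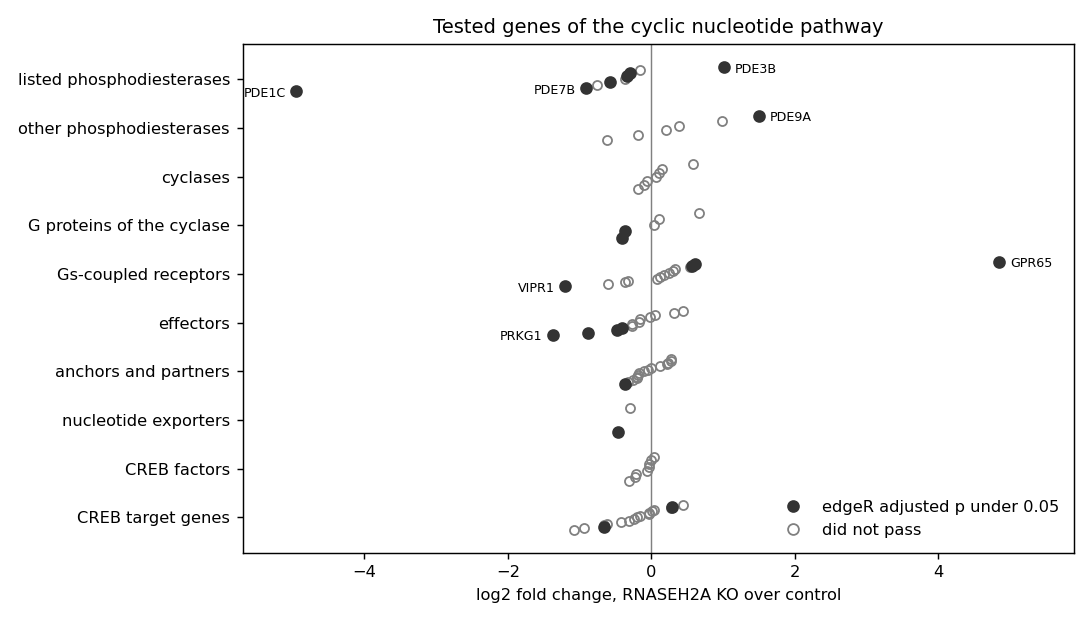
Fold change of each tested gene on the log2 scale, RNASEH2A KO over control, by its place in the cyclic nucleotide pathway. Filled points passed edgeR at an adjusted p under 0.05, open points did not (for the listed phosphodiesterases as a description only), and passing genes beyond 0.9 in size are named. PDE1C at -4.95 and GPR65 at 4.85 lie farthest from 0, and the cyclases and CREB factors hold no filled point.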

How the data were processed

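Strand-specific poly-A libraries were made by the submitters, per the labels' protocols. The submitters' processing notes name FastQC, STAR version 2 and GRCh38. No counter, strand setting or annotation release is named in the sources used here. The deposited raw count table holds 25330 gene symbols, 3188 of them without a count. The log2 CPM table that the authors deposited holds 15066 genes and served as an alternative. The members and gene lists were chosen with earlier results of these data known.

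Counts were tested with edgeR 4.0.16 in R 4.3.3: filterByExpr (14199 genes kept), TMM scaling, the quasi-likelihood F test on the group term without covariates, two-sided, with Benjamini-Hochberg adjustment over all tested genes and a call at an adjusted p under 0.05. Printed CPM values use TMM factors, and the SE is the log2 fold change divided by the square root of F. On simulated counts for this comparison (200 genes changed, 14052 tested) 57.4% of 1.5-fold, 87.1% of 2-fold and 97.1% of 4-fold changes were recovered, and 6.90% of the 174 calls were false. The 200 changed genes are fewer than the 1718 called in the data. Simulated libraries were also drawn independently, so these rates need not hold for the data. Positions, exon lengths and neighbours came from GENCODE 29 (22552 symbols placed). The depth, 25419877 to 31596286 counts, puts the limit of a count of 0 at 0.0949 to 0.118 CPM, for counting error only. Named genes were the 10 members and, per list, up to 4 called genes with the smallest p, or 2 where none was called, plus 3 genes like the highest member. One gene that this rule names is not reported here. Alternatives were DESeq2 1.42.0, limma-voom (limma 3.58.1), other scalings and filters, the replicate block, the deposited log2 CPM, neighbour subtraction and leaving out each library. Protein sequences and the genes PDE1B, AKAP2, ADRB3, PTGIR, GLP1R, DRD1, DRD5, HRH2, PCK1 and SST were not analysed here.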

Additional observations from a re-analysis of the deposited data

How the results depend on the processing

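All 9 tested phosphodiesterases of the list kept their direction in every alternative run, as did PDE9A, which also kept its call. The listed genes were chosen on this contrast, and each alternative reuses these libraries. Kept directions and calls of the listed genes are therefore partly set by that choice. The count of called genes, 1718, was 3099 with the replicate block and 989 with the neighbour median subtracted, and ran from 524 to 3430 with 1 library left out. The count among the listed genes ran from 1 to 8 with 1 library left out, and was 5 to 8 over the other tools, scalings, filters and the block and 4 with neighbours subtracted. PDE3B lost its call in 7 of 15 alternatives, PDE4A in 5, PDE4B and PDE8A in 4 and PDE7B in 3. The 15 called genes of the other lists became 25 with the replicate block and 7 to 27 with 1 library left out. CREB1 was among those that passed with the block (adjusted p = 0.0387). The cause was not tested, beyond the fewer samples where 1 library is left out. Same-numbered libraries had correlated deviations of 0.316, 0.139 and 0.0855, the last under the limit of 0.1. Knockout replicate 2 correlated best with control replicate 3 (0.141), and knockout replicate 3 with control replicate 2 (0.0915). The labels do not say that the numbers pair libraries, and the numbers were not taken as pairs. The summed log2 ratio ran from -0.47 to -0.35. In the order of levels, 8 of 10 places were the same per kb of the longest transcript and 6 of 10 by CPM alone. PDE7A reversed to -0.0856 with neighbours subtracted, and PDE11A to 0.017 without knockout replicate 2 and 0.0096 without knockout replicate 1, in a range from -0.668. Depth limits PDE3A and, in the knockout, PDE1C.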
